A study of Mus musculus with 32 samples.

Results

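Untreated Mettl3 KO hippocampal neurons were compared between their neurites and their soma with 4 RNA-seq libraries out of the 32 of the study, 2 of neurites and 2 of soma. The libraries were chosen by their labels alone: genotype Mettl3-/-, no KCl, standard RNA-seq. A gene entered with a mean count of at least 10 over these libraries, which left 22557 of 55573 genes. The neurons came from newborn pups of the strain Mettl3Flox/Flox. They grew on a porous membrane, received an AAV carrying Cre-P2A-dTomato at DIV 7, were silenced for 16 h from DIV 14 (tetrodotoxin at 1 µM, together with the NMDA receptor blocker D-AP5 at 50 µM), and were collected at DIV 15 without KCl. Neurites were scraped from the underside of the membrane and the soma fraction from its top, where neurites that have not crossed a pore are also collected. The study's methods give the human synapsin promoter for Cre, so that only neurons are expected to lose the gene, and pool the pups of a litter, both sexes together, with a separate litter for each replicate. Untreated WT neurons (C57BL/6, the same virus and silencing, 2 libraries of each compartment) are used only to show where the KO differs. The genotypes are also different lines of mice, so genotype and line cannot be told apart.

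Neurons send a subset of their RNAs into dendrites and axons, where they are translated close to synapses. The RNAs travel in particles along microtubules, pulled by kinesin and dynein motors, and the signals for transport lie mostly in the 3'UTR. METTL3 is the catalytic subunit of the complex that writes N6-methyladenosine (m6A), the most common internal mark of mRNA, at adenosines that are usually followed by a cytosine. The comparison asks how RNAs are divided between soma and neurites in neurons that have lost this enzyme.

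The sites at which the lost enzyme acts are shown first for 4 RNAs on which the results turn, as mapped by DART-seq, an assay in which a cytosine next to m6A is edited and read as U. For each RNA the site with the highest deposited editing fraction (C2U, the authors' average over WT libraries) is given with 10 bases on either side, read from GRCm38 of RefSeq on the strand of the RNA. Capitals mark the 2 bases before the edited cytosine and the cytosine itself, so that the adenosine is the middle capital.

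Map2, chr1:66440353-66440373, + strand, 3'UTR: cccccaaaGACctcttgatca

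Shank1, chr7:44344890-44344910, + strand, coding exon: tccccacaGACaaactggatg

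Kif5a, chr10:127248231-127248251, - strand, 3'UTR or coding exon depending on the transcript: tccccccaAACaccactcagg

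Meg3, chr12:109559887-109559907, + strand, noncoding exon: cgcaatctGACcacttaactc

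The editing fraction was 0.128 at the Map2 site, 0.0886 at the Shank1 site, 0.0350 at the Kif5a site and 0.111 at the Meg3 site. Map2 had 16 deposited sites, Shank1 and Kif5a 7 each and Meg3 20. All 18231 deposited sites have a cytosine at the named position of this genome and GAC or AAC ending there. The study's methods kept only edited cytosines in this motif, so the match checks the coordinates alone.

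Mettl3 itself was lower in every KO library than in every WT library. It stood at 9.23 and 11.3 CPM (counts relative to the library's total, scaled with TMM factors over the 8 untreated libraries) in KO soma and 4.04 and 6.99 in KO neurites. In WT it stood at 17.3 and 16.7 in soma and 12.4 and 12.8 in neurites. The counts cover all exons, including those outside the deleted part, and glia, which the promoter is not expected to reach, would keep the gene, so the remaining level does not measure how many neurons were recombined.

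The KO libraries held 34969090 to 50431597 counts, within the range of 33789183 to 71394235 over the 16 RNA-seq libraries, and the 37 mitochondrially encoded genes were at 0 in all of them. One library stood apart, KO soma replicate 2. The log2 difference between replicates had an SD across genes of 0.88 in KO soma and 0.50 in KO neurites (0.19 and 0.38 in WT). Short genes were low in this library. Among the 12137 protein-coding genes whose mean count reached 100, the 233 with exons summing to under 1000 bases had a median log2 difference of −2.30 between soma replicate 2 and soma replicate 1, against 0.31 for the 3526 genes of 2000 to under 4000 bases. Between the 2 neurite libraries the same medians were −0.26 and −0.07. Counts of genes and lists are therefore given with both soma libraries, and most also for both neurite libraries against soma replicate 1 alone or from the fit without soma replicate 2. The comparison with soma replicate 1 alone was added after the values were seen. The cause was not tested.

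**Figure D1:**
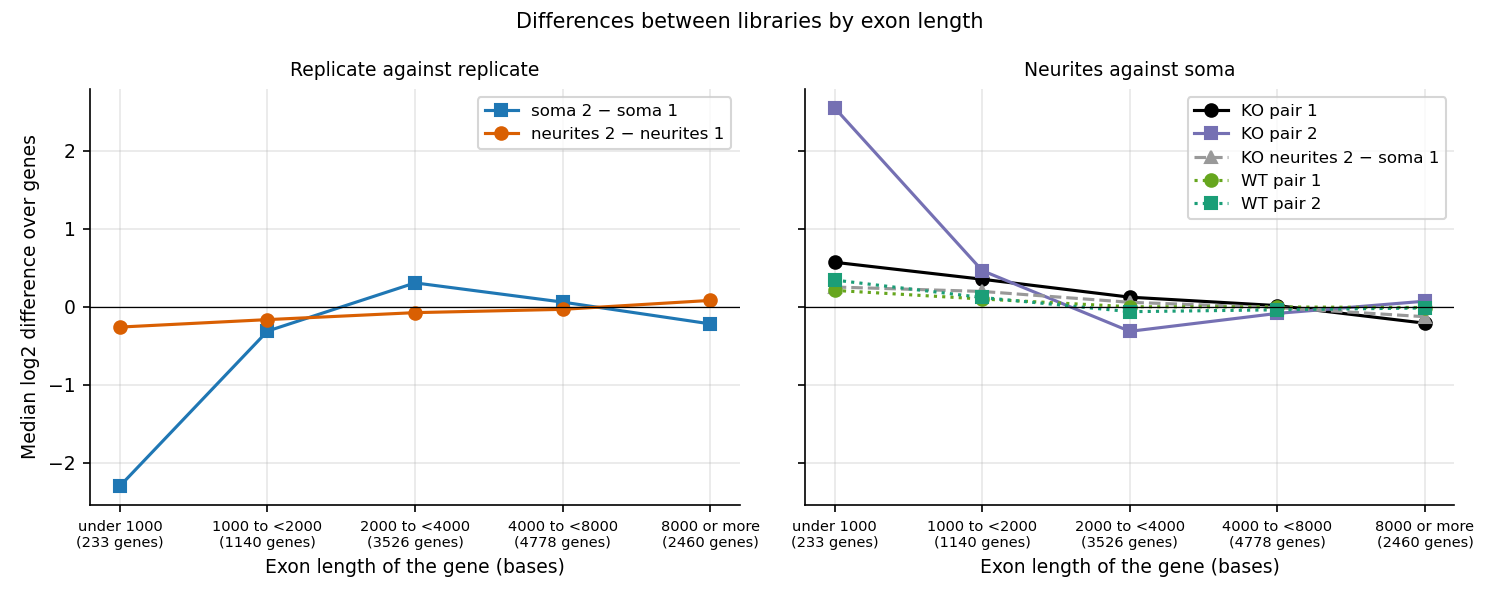
Median log2 differences over protein-coding genes in 5 classes of exon length, between replicates of the same compartment (left) and between neurites and soma of the same number (right). The line for KO soma drops to −2.30 for genes under 1000 bases, and KO pair 2 is at 2.55 there, while KO pair 1 is at 0.57 and the WT pairs are at 0.21 and 0.34.

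No gene passed the test. With edgeR (its quasi-likelihood test, two-sided, p-values adjusted after Benjamini and Hochberg, and a fold of 1.5 or more) the smallest adjusted p was 0.681 in the 4 libraries, 0 of 22557 genes (0%) were called in either direction, and 842 higher (3.73%) and 545 lower (2.42%) had an unadjusted p of at most 0.05. With the replicate number as a block, since the methods pair the soma and neurites of 1 insert, edgeR also called 0 genes, with 1756 higher and 358 lower at an unadjusted p of at most 0.05. DESeq2 called 86 higher (0.381%) and 9 lower (0.0399%) on the same counts, of which 61 and 0 were pseudogenes. The values below are therefore levels and ratios in the 4 libraries. The biological coefficient of variation was 0.408. It was 0.278 without soma replicate 2 and also 0.278 without soma replicate 1. Either fit leaves 1 soma library and takes its spread from the neurite libraries alone, so only its ratios are used below. Replicates were separate litters. In bulk libraries of a fraction, fewer cells of a type and less RNA per cell cannot be told apart.

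Each neurite library was also set against the soma library of the same number. In both pairs, 2082 genes (9.23%) had a neurite level 1.5-fold or more above soma and 668 (2.96%) 1.5-fold or more below it, on the scale of log2(CPM + 0.5). A further 907 genes were past 1.5-fold in opposite directions, 696 of them higher in pair 1 and lower in pair 2. With soma replicate 1 alone as the reference for both neurite libraries, 1802 genes were higher (7.99%) and 1448 lower (6.42%), and 1300 of the 2082 (62.4%) and 405 of the 668 (60.6%) were among them. Both neurite libraries lay above both soma libraries for 5123 genes (22.7%) and below them for 5092 (22.6%). Protein-coding genes made up 985 of the 2082 higher genes and 414 of the 668 lower ones. Pseudogenes made up 961 of the higher genes, 28.2% of the 3406 tested. Since the authors counted reads that map to several places, these copies share reads with their parent genes. Of the 1283 genes in the GENCODE class TEC, transcripts of uncertain status, 130 were lower in both pairs (10.1%) and 4 were higher.

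**Figure D2:**
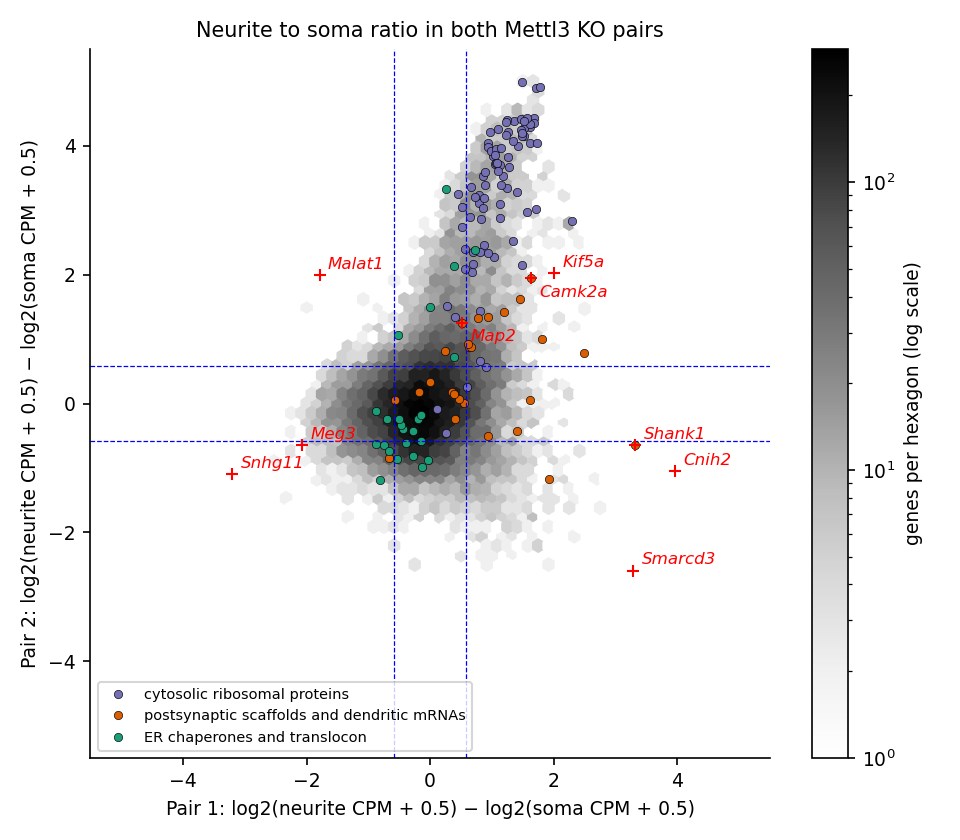
Log2 neurite to soma ratio of 22557 genes in pair 1 (horizontal) and pair 2 (vertical), with 3 gene lists in colour, 9 genes named and dashed lines at 1.5-fold. Kif5a and Camk2a lie near the diagonal, most ribosomal protein genes lie above it, and Shank1, Cnih2 and Smarcd3 lie at the lower right.

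After the ribosomal lists, the messengers of postsynaptic proteins had the highest median of the 28 lists examined once soma replicate 2 was set aside. In the fit of all 4 libraries their median was 0.65. There the respiratory chain (1.29), histones (0.83) and astrocyte markers (0.73) also had higher medians. Of 26 genes for scaffolds, kinases and other known dendritic RNAs, 10 were 1.5-fold or more higher in both pairs and 1 (Baiap2) was lower. The list's median log2 ratio was 0.64 in pair 1 and 0.26 in pair 2, against medians close to 0 over all genes. Against soma replicate 1 alone 14 were higher and none lower, with a median of 0.77 in the fit without soma replicate 2. At an unadjusted p of at most 0.05, 7 were higher and none lower.

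Camk2a, the alpha subunit of the kinase CaMKII and a classical dendritic mRNA, was at 1200.2 and 1364 CPM in soma and 3718 and 5274 in neurites. Both neurite libraries lay above both soma libraries, with a log2 fold change of 1.81 ± 0.39 (SE, edgeR adjusted p = 0.681, DESeq2 adjusted p = 0.027). Kif5a, a heavy chain of the conventional kinesin that moves cargo along axons and dendrites, was at 1265 and 1068 CPM in soma and 5097 and 4362 in neurites. Its log2 ratio was 2.01 in pair 1 and 2.03 in pair 2. The fitted change was 2.02 ± 0.37 (SE, edgeR adjusted p = 0.681, DESeq2 adjusted p = 0.011).

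Map2, the microtubule-associated protein that marks dendrites, was at 379 and 280.3 CPM in soma and 544 and 669.7 in neurites. Its groups did not overlap, but the log2 change of 0.88 ± 0.36 (SE) was smaller than that of Camk2a, and pair 1 stayed under 1.5-fold with a ratio of 0.52. Shank1, a scaffold of the postsynaptic density, was at 50.6 and 201 CPM in soma and 509.9 and 128 in neurites. The soma and neurite libraries overlapped: pair 1 gave a log2 ratio of 3.32 and pair 2 gave −0.64. Actb, cytoplasmic beta actin, was at 3232 and 1781 CPM in soma and 2937 and 2499 in neurites, and both neurite libraries lay between the 2 soma libraries.

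The other 9 postsynaptic genes higher in both pairs, named for that reason after their values were seen, were Psd, Ddn, Dlgap3, Nrgn, Ppp1r9b, Shank3, Dlg2, Iqsec2 and Shank2. Psd, an exchange factor for the small GTPase ARF6, was at 105 and 155 CPM in soma and 589.8 and 267 in neurites. Ddn, the cytoskeletal protein dendrin, was at 22.4 and 43.3 CPM in soma and 62.1 and 134 in neurites. Nrgn, the calmodulin-binding protein neurogranin, was at 42.04 and 33.3 CPM in soma and 97.1 and 90.2 in neurites. For these 3 and for Dlgap3, Ppp1r9b and Shank3 the edgeR unadjusted p lay between 0.0073 and 0.025, with log2 changes of 1.07 to 1.72. For Dlg2, Iqsec2 and Shank2 it lay between 0.061 and 0.075, with log2 changes of 0.76 to 0.79. The edgeR adjusted p was 0.681 for each of the 9. Not every postsynaptic gene followed: Camk2b, the beta subunit of the same kinase, was at 701 and 858 CPM in soma and 1029 and 865 in neurites, a log2 change of 0.28 ± 0.35 (SE). Homer1 (17.8 and 28.9 CPM in soma, 34.4 and 20.2 in neurites) and Arc (17.4 and 28.5 in soma, 22.2 and 25.9 in neurites) overlapped between compartments.

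Messengers of the receptors these scaffolds hold did not share the pattern. Of 21 glutamate receptor subunits 1 was higher and 1 lower in both pairs, with list medians of −0.03 and 0.08, and against soma replicate 1 alone 2 were higher and 4 lower. Gria2, an AMPA receptor subunit, was at 335 and 225 CPM in soma and 329 and 344 in neurites, and these groups overlapped. The lower gene was Grik1, a kainate receptor subunit, at 43.5 and 38.3 CPM in soma and 15.1 and 21.5 in neurites, a log2 change of −1.16 ± 0.35 (SE).

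On the presynaptic side, 3 of 24 genes for synaptic vesicles and release were higher in both pairs (12.5%, against 9.23% of all genes) and none lower, with list medians of 0.23 and 0.14. With soma replicate 1 alone as reference 2 were higher and 2 lower. Cplx2, a complexin that binds the SNARE fusion complex, was at 499 and 609 CPM in soma and 1419 and 1814 in neurites. Rims1, a scaffold of the active zone, was at 20.3 and 20.95 CPM in soma and 57.0 and 54.6 in neurites. Both had neurite libraries above both soma libraries, with log2 changes of 1.55 ± 0.37 and 1.44 ± 0.32 (SE). Snap25, a SNARE protein of the plasma membrane, was at 400.3 and 1269 CPM in soma and 454 and 757 in neurites, so that soma replicate 2 was the highest library. Syn1, which tethers vesicles, and Rab3a, a vesicle GTPase, had log2 changes of 0.25 ± 0.34 and −0.20 ± 0.33 (SE).

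Among 55 kinesin and dynein genes, 10 were higher in both pairs (18.2%, against 9.23% of all genes) and 1 lower. The list medians were 0.14 and 0.24. All 3 heavy chains of conventional kinesin were among the higher ones. Kif5c was at 1628 and 1388 CPM in soma and 3329 and 3249.7 in neurites. Kif5b was at 310.0 and 599 CPM in soma and 703 and 1005 in neurites, and Kif1a, a motor for synaptic vesicle precursors, at 1579 and 640.4 in soma and 3131 and 2241 in neurites. In each of these the neurite libraries lay above both soma libraries. Dynlrb1 and 4 of the Dynlt1 copies, short dynein light chains, made up 5 of the 10. Against soma replicate 1 alone 6 of the 55 were higher (10.9%, against 7.99% of all genes) and 2 lower (3.64%, against 6.42%). None of these 5 light chains was among those 6 higher genes. Kif11, a mitotic kinesin, was the lower gene.

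Few genes of the cytoskeleton were past 1.5-fold. None of 14 tubulin genes and none of 20 genes for microtubule-associated proteins, stathmins and neurofilaments was past 1.5-fold in both pairs, with medians of 0.02 and −0.10 for the tubulins and 0.14 and 0.39 for the second list, of which 13 were above even and 3 below it in both pairs. Tubb2a had a log2 change of −0.24 ± 0.35 (SE) and Tubb3 of −0.12 ± 0.33. Map1a, a microtubule-associated protein of mature dendrites, was at 527 and 461 CPM in soma and 768 and 1314 in neurites, and Map1b at 3690.4 and 4577 in soma and 5196 and 5011 in neurites. For both the neurite libraries lay above both soma libraries, with a log2 change of 1.08 ± 0.41 (SE) for Map1a. Of 23 genes for actins and actin-binding proteins 3 were higher in both pairs (13%, against 9.23% of all genes) and none lower. The 3 included Tmsb10 and Tmsb4x, short thymosins that hold actin monomers. Tmsb10 was at 973 and 64.4 CPM in soma and 2060.2 and 1546 in neurites, so that soma replicate 2 was far below the other 3 libraries.

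The messengers of cytosolic ribosomal proteins had the largest medians above soma of the lists of protein-coding genes. Of 82 cytosolic ribosomal protein genes 71 were 1.5-fold or more higher in both pairs and none lower. Their summed level, in CPM of the library's total without TMM factors, was 15576 and 4548 CPM in soma and 30195 and 27133 in neurites. The list median was 1.09 in pair 1 but 3.56 in pair 2, and the median exon length of the list was 1776 bases. Against soma replicate 1 alone 59 of 82 were higher and none lower, with a median of 0.96 in the fit without soma replicate 2, so the direction of the list did not rest on that library while most of the size in pair 2 did. At an unadjusted p of at most 0.05, 19 were higher.

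Rps2, a protein of the small subunit, was at 503 and 193 CPM in soma and 2480.5 and 1382 in neurites, with log2 ratios of 2.30 and 2.84. Rplp0, a protein of the ribosomal stalk, was at 882 and 309 CPM in soma and 2464 and 1374 in neurites. Rpl13 was at 530.1 and 75.7 CPM in soma and 1417 and 1218 in neurites, whereas Rpl4 was at 600.4 and 816 in soma and 1120 and 1211 in neurites, without a low value in soma replicate 2. Rpl4 and Rps2 were higher in both neurite libraries than in both soma libraries, as were Rplp0 and Rpl13. Translation factors did not follow: 7 of 66 initiation and elongation factors were higher in both pairs (10.6%, against 9.23% of all genes), with medians of 0.06 and 0.12. Eef2, which moves the ribosome along the message, was at 866 and 708 CPM in soma and 1419 and 1600 in neurites, and Eef1a1, which delivers aminoacyl-tRNA, at 1715 and 2574 in soma and 2998 and 2532 in neurites. The copies of ribosomal genes annotated as pseudogenes lay like their parents (187 of 221 higher, medians 0.98 and 3.07) and hold no separate evidence, because they share reads.

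Messengers for mitochondria showed the same split between pairs. Of 89 nuclear genes of the respiratory chain 48 were higher in both pairs and none lower, with medians of 0.64 and 2.88 and 0.52 without soma replicate 2, and 23 were higher against soma replicate 1 alone. Cox6a1, a subunit of cytochrome c oxidase with 702 bases of exon, was at 943 and 68.8 CPM in soma and 2447 and 1459 in neurites. Cox4i1, another subunit of that enzyme, was at 1237 and 126 CPM in soma and 2201 and 1544 in neurites. Atp5b, the longer beta subunit of ATP synthase (4237 bases), was at 1481 and 1987 CPM in soma and 1418 and 1242 in neurites, so that both neurite libraries lay below both soma libraries. Mitochondrial ribosomal proteins had 12 of 76 genes higher (15.8%, against 9.23% of all genes) and none lower, with medians of 0.20 and 1.33. Against soma replicate 1 alone 3 were higher, a share below that of all genes (3.95%, against 7.99%). Mrpl28, their member with the highest level, was at 186 and 77.3 CPM in soma and 221 and 197 in neurites.

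The 10 genes with the largest ratio in their weaker pair, among protein-coding genes and long noncoding RNAs whose mean count reached 100 (symbols of the form Gm or Rik left out), were BC024139, Ppp1r14b, Rps2, Gng13, Ttc9b, Vegfb, Kif5a, Selenow, Ftl1-ps1 and Fth1. These were picked by their ratios, which are thus a description. BC024139 was at 3.06 and 3.45 CPM in soma and 26.3 and 21.5 in neurites, and had the smallest unadjusted p of all genes together with Vegfb, Gm8118, Gm48700 and Gm9159. Vegfb, a growth factor of the VEGF family, was at 15.3 and 11.7 CPM in soma and 79.9 and 50.7 in neurites. Gng13, a gamma subunit of G proteins, was at 2.26 and 0.477 CPM in soma and 12.4 and 11.3 in neurites. Fth1, the ferritin heavy chain that stores iron, was at 2606 and 631 CPM in soma and 10030.4 and 6508 in neurites, and Selenow, a small selenoprotein, at 1391 and 197 in soma and 5485 and 4263 in neurites. In every one of these 10 genes except BC024139, soma replicate 2 was the lowest of the 4 libraries. Ftl1-ps1 is annotated here as protein-coding but is a near copy of the ferritin light chain gene, so its reads cannot be assigned to it with certainty.

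**Figure D3:**
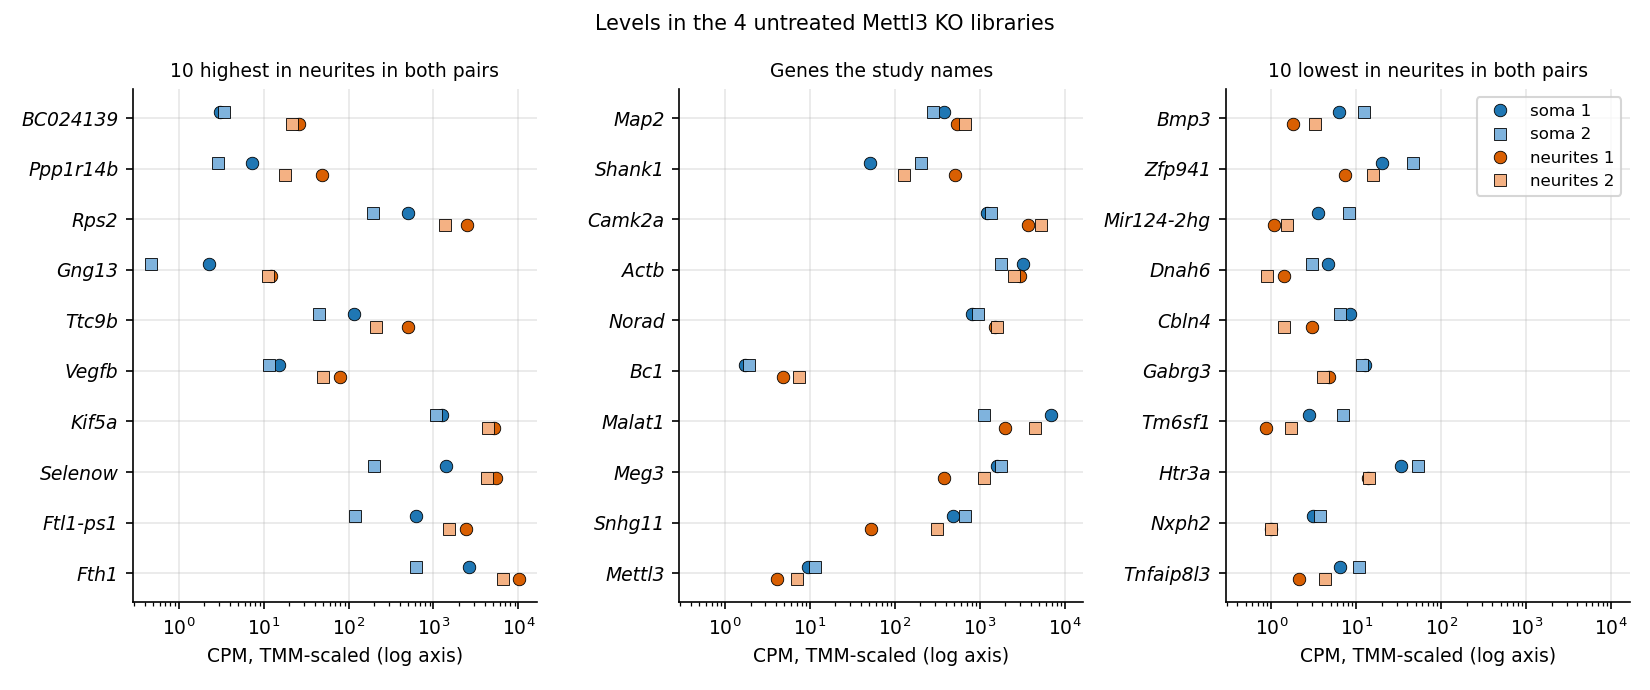
Level of 30 genes in each of the 4 KO libraries, as TMM-scaled CPM on a log axis. Blue marks soma and orange neurites, circles replicate 1 and squares replicate 2. Kif5a and Camk2a show tight replicates far apart between compartments, Fth1 and Selenow show a low soma replicate 2, and Shank1 and Malat1 show replicates that cross.

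Genes for ER chaperones and the translocon had medians on the soma side. Of 24 tested 4 were lower in both pairs (Hspa5, Calr, P4hb and Dnajb9; 16.7%, against 2.96% of all genes) and 1 was higher, none of them called by edgeR, with medians of −0.34 and −0.37. Against soma replicate 1 alone 5 were lower and none higher, with a median of −0.43 in the fit without soma replicate 2. Hspa5, the chief chaperone of the ER lumen, was at 1136 and 928 CPM in soma and 621 and 598 in neurites. Calr, calreticulin, was at 571 and 459.8 CPM in soma and 342 and 295 in neurites. In both genes the neurite libraries lay below both soma libraries, with log2 changes of −0.76 ± 0.34 and −0.70 ± 0.35 (SE). Glycolysis enzymes had medians of −0.22 and −0.40 with none of 17 past 1.5-fold in both pairs, and Pgam1, a phosphoglycerate mutase, was at 870.2 and 1332 CPM in soma and 677 and 738 in neurites.

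Long noncoding RNAs were a mixed group, and messengers of nuclear proteins and of immediate early genes are given after them. Snhg11, a host gene of small nucleolar RNAs, was at 489 and 672 CPM in soma and 52.5 and 313 in neurites, and Meg3, an imprinted nuclear RNA, at 1596 and 1754 in soma and 380.3 and 1125 in neurites. Both were lower in both pairs, and the 2 neurite libraries differed more than 2-fold from each other in each. Malat1, a nuclear RNA that sits at splicing speckles, overlapped: 6904 and 1107 CPM in soma against 1999 and 4400.1 in neurites, with log2 ratios of −1.79 and 1.99. Neat1, the scaffold of paraspeckles, was at 3.13 and 3.56 CPM in soma and 2.12 and 2.78 in neurites. Norad, a cytoplasmic RNA that binds Pumilio proteins and is listed in the annotation as 2900097C17Rik, was at 815 and 957 CPM in soma and 1496 and 1596 in neurites, a log2 change of 0.80 ± 0.34 (SE). Of 18 neuronal long noncoding RNAs tested 5 were higher (27.8%, against 9.23% of all genes) and 2 lower (11.1%, against 2.96%) in both pairs. Against soma replicate 1 alone 4 were higher (22.2%, against 7.99%) and 6 lower (33.3%, against 6.42%). None of 31 splicing factors was past 1.5-fold in both pairs, with medians of −0.09 and −0.65, and 0.02 in the fit without soma replicate 2. Hnrnpk, an abundant hnRNP, was at 481 and 739 CPM in soma and 451 and 454 in neurites. Zinc finger genes had 7 of 370 higher (1.89%) and 13 lower (3.51%), with medians of −0.20 in both pairs. Histone genes had 4 of 60 higher (6.67%) and 3 lower (5%), with medians of 0.25 and 1.51. Over all genes these shares were 9.23% higher and 2.96% lower. None of 19 immediate early genes was past 1.5-fold in both pairs, with medians of 0.09 and −0.08. Against soma replicate 1 alone 4 of the 19 were higher (21.1%, against 7.99% of all genes) and none lower, with a median of 0.32 in the fit without soma replicate 2.

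Bc1, a short noncoding RNA of dendrites that represses translation, was low throughout, at 1.74 and 1.91 CPM in soma and 4.82 and 7.47 in neurites. Both neurite libraries lay above both soma libraries, a log2 change of 1.75 ± 0.45 (SE). For this gene of 168 bases the change ran from 0.67 to 1.97 over 14 other settings of the processing. Bdnf, a neurotrophin, was at 11.1 and 8.85 CPM in soma and 15.7 and 10.1 in neurites. Of the 16 genes of the m6A machinery (writers, readers and erasers) none was higher in both pairs, and Mettl3 alone was lower. Fto, a demethylase, was at 191 and 149 CPM in soma and 218 and 209 in neurites, a log2 change of 0.33 ± 0.34 (SE).

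The 10 lowest genes by the same rule were Bmp3, Zfp941, Mir124-2hg, Dnah6, Cbln4, Gabrg3, Tm6sf1, Htr3a, Nxph2 and Tnfaip8l3. Htr3a, a subunit of the serotonin-gated channel found on interneurons, was at 33.8 and 53.4 CPM in soma and 13.8 and 14.3 in neurites. Gabrg3, a GABA-A receptor subunit, was at 12.5 and 11.7 CPM in soma and 4.82 and 4.07 in neurites. Cbln4, a secreted organiser of synapses, was at 8.48 and 6.35 CPM in soma and 3.02 and 1.41 in neurites, and Nxph2, a ligand of neurexins, at 3.11 and 3.76 in soma and 1.00 and 0.996 in neurites. In all 10 genes both neurite libraries were below both soma libraries, and 8 of the 10 were under 15 CPM in every library.

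The pairs disagreed most for Smarcd3, Cnih2, Jund and C1ql1 among the genes reported, again a description because the rule chose them by that difference. Smarcd3, a subunit of chromatin remodelling complexes, was at 7.04 and 94.4 CPM in soma and 73.2 and 15.2 in neurites. Cnih2, which accompanies AMPA receptors to the surface, was at 86.3 and 761 CPM in soma and 1348 and 366 in neurites. Jund, a subunit of AP-1, was at 14.6 and 230.0 CPM in soma and 55.6 and 26.9 in neurites. In all 4, soma replicate 2 and neurite replicate 1 were above their partner of the same compartment. The GC content of the longest transcript was 59.2% to 67.1% in these genes and 61.4% in Shank1, higher than in 93.3% to 99.8% of the 12137 genes. Over that set, genes with at least 54% GC had a median log2 ratio of 0.25 in pair 1 and −0.01 in pair 2. The part that base composition plays in these values was not tested.

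Markers of cell types were checked against the labels, with sums in CPM of the library's total without TMM factors. Neuronal markers summed to 3650 and 4878 CPM in KO soma and 3168 and 4021 in KO neurites, and none of 10 was past 1.5-fold in both pairs. Astrocyte markers were also present, all 11 detected, with sums of 2851 and 2291 CPM in soma and 6185 and 3043 in neurites. Gfap, the intermediate filament of astrocytes, was at 1182 and 1069 CPM in soma and 4329 and 1866 in neurites, and Slc1a3, a glial glutamate transporter, at 536 and 220.4 in soma and 1099 and 413 in neurites. Slc1a2, the other glial glutamate transporter, was even (370.4 and 218 in soma, 321 and 244 in neurites). In both pairs 3 of the 11 markers were higher (Gfap, Slc1a3 and Aldh1l1; 27.3%, against 9.23% of all genes). Against soma replicate 1 alone 1 was higher (9.09%, against 7.99% of all genes). The promoter drives Cre in neurons, so the RNA of astrocytes is expected to keep Mettl3. How much of any neurite value comes from astrocytes was not tested.

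Inhibitory neuron markers lay towards soma, with medians of −0.60 and −0.31. In both pairs 3 of 10 were lower (Gad1, Slc32a1 and Vip; 30%, against 2.96% of all genes) and none higher. With soma replicate 1 alone as reference 3 were lower (30%, against 6.42% of all genes) and none higher. Gad1, an enzyme that makes GABA, was at 328 and 416 CPM in soma and 196 and 227 in neurites, and Gad2, its paralog, at 111 and 119 in soma and 62.6 and 84.8 in neurites. For both genes the neurite libraries lay below both soma libraries. Calb2, calretinin, was at 1095 and 734 CPM in soma and 981 and 1025 in neurites. Markers of other cells were low: microglia sums were 20.4 to 58.9 CPM over the 4 libraries, oligodendrocyte lineage sums 163 to 232, fibroblast and vascular sums 37.5 to 162 and those of dividing cells 9.68 to 21.9. Of the oligodendrocyte lineage list 2 of 9 were higher in both pairs (22.2%, against 9.23% of all genes), but none against soma replicate 1 alone. Of the fibroblast and vascular list 1 of 12 was higher (Rgs5; 8.33%, against 9.23%) and 1 lower (Vtn; 8.33%, against 2.96%). None of the 8 markers of dividing cells was past 1.5-fold in both pairs. Against soma replicate 1 alone none of the fibroblast and vascular markers was higher and 4 of 12 were lower (33.3%, against 6.42% of all genes). Their median was −0.94 in the fit without soma replicate 2, where the pairs gave −0.55 and 0.44. Microglia markers had list medians of 0.13 and 0.25, and 0.61 without soma replicate 2, with none of 9 past 1.5-fold in both pairs. Interferon response genes had 1 of 12 higher in both pairs (8.33%, against 9.23% of all genes), with medians of 0.21 and 0.08. Their median was 0.59 without soma replicate 2.

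**Figure D4:**
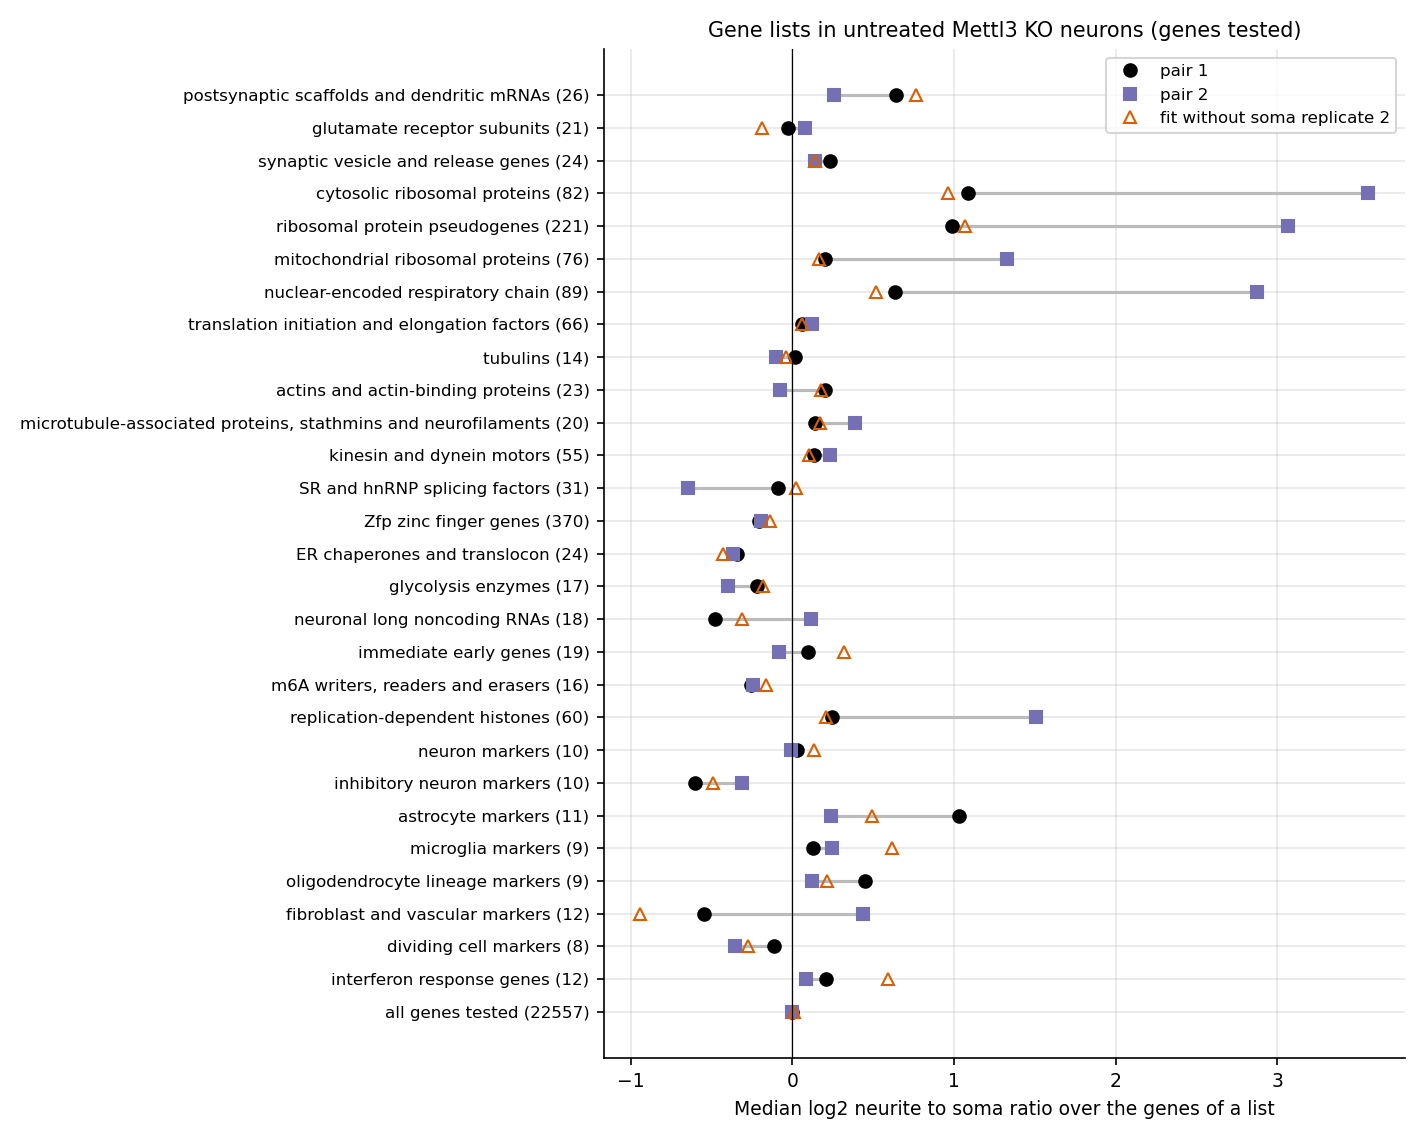
Median log2 neurite to soma ratio of 28 gene lists and of all genes, in pair 1 (circles), in pair 2 (squares) and in the fit without soma replicate 2 (triangles). Numbers of genes tested stand in brackets. The cytosolic ribosomal and respiratory chain lists are farther right in pair 2, at 3.56 and 2.88, than in pair 1, at 1.09 and 0.64. ER genes lie left of 0 by all 3 measures.

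The KO ratios were then set beside those of untreated WT neurons in a fit of all 8 untreated libraries, which tests the difference in neurite enrichment itself. Of 22942 genes 0 (0%) passed the edgeR test at an adjusted p, with 165 genes (0.719%) more and 272 (1.19%) less enriched in KO neurites at an unadjusted p of at most 0.05. With the replicate block these were 185 and 162. DESeq2 called 0 more enriched and 1 less enriched, Vtn, named here after its value was seen. Vtn, the matrix protein vitronectin, was at 0.879 and 0.700 CPM in WT soma and 1.79 and 2.54 in WT neurites, but at 1.69 and 1.91 in KO soma and 0.404 and 0.431 in KO neurites. The difference was −3.55 ± 0.50 on the log2 scale (SE, DESeq2 adjusted p = 0.000348, edgeR adjusted p = 0.993). Vtn belongs to the fibroblast and vascular list, whose summed level on the same scale (11 members in this fit) was 45.8 and 40.8 CPM in WT soma and 154.7 and 196 in WT neurites, against 87.8 and 33.2 in KO soma and 183.5 and 73.7 in KO neurites. The median difference over this list was −1.65, and −2.34 without KO soma replicate 2, and its part in the Vtn value was not tested.

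Among the localized messengers the study names, Map2 was at 462 and 478 CPM in WT soma and 1426 and 1908 in WT neurites, against 373 and 277 in KO soma and 534 and 658 in KO neurites on the same scale. All 4 KO values were below the WT values of the same compartment, and the neurite enrichment was 0.95 ± 0.35 lower in KO (0.88 against 1.83 on the log2 scale, edgeR adjusted p = 0.993, unadjusted p = 0.0282). Without KO soma replicate 2 the difference was −1.15. Cell type markers differed between the genotypes as well. On the same scale neuron markers summed to 3406 and 4323 CPM in KO soma and 3587 and 4044 in KO neurites, against 4013 and 4202 in WT soma and 5349.9 and 6251 in WT neurites. Astrocyte markers summed to 2660.1 and 2030.2 in KO soma and 7004 and 3060.2 in KO neurites, against 1217 and 1239 in WT soma and 3274 and 2141 in WT neurites. Their part in the differences between genotypes was not tested. Camk2a had an enrichment of 1.81 in KO and 2.15 in WT, a difference of −0.35 ± 0.36 (SE), and Shank1 of 1.34 and 2.14, a difference of −0.80 ± 1.03 (SE) that turned to 0.52 without KO soma replicate 2. Kif5a had 2.02 and 1.98, a difference of 0.03 ± 0.32 (SE), and Actb 0.11 and −0.05, a difference of 0.17 ± 0.41 (SE).

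Gabrg3 and Bc1, the noncoding RNA named above, had larger differences than Map2. Gabrg3 was even in WT (8.65 and 8.43 CPM in soma, 7.95 and 9.53 in neurites) and low in KO neurites, a difference of −1.48 ± 0.33 (SE, edgeR adjusted p = 0.993, unadjusted p = 0.00247). Bc1 was even in WT too, at 10.7 and 15.3 CPM in soma and 12.4 and 12.4 in neurites, and far lower than that in both KO compartments, with a difference in enrichment of 1.82 ± 0.43 (SE, edgeR adjusted p = 0.993, unadjusted p = 0.00349). Nxph2 had a difference of −1.19 ± 0.37 (SE). These 3 differences were −1.52, 1.89 and −1.04 without KO soma replicate 2.

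The size of some list differences between genotypes rested on KO soma replicate 2. The median difference over the ribosomal protein genes was 0.86 with it and 0.08 without it, and over the respiratory chain genes 0.73 and −0.02. Over the fibroblast and vascular markers it grew from −1.65 with that library to −2.34 without it. Over the 9 microglia markers it was −0.64 both with and without that library. Over the postsynaptic list it was −0.36 with and −0.13 without that library, with 1 of 26 genes, Map2, at an unadjusted p of at most 0.05. The median difference over all genes was −0.05 with and −0.01 without it.

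**Figure D5:**
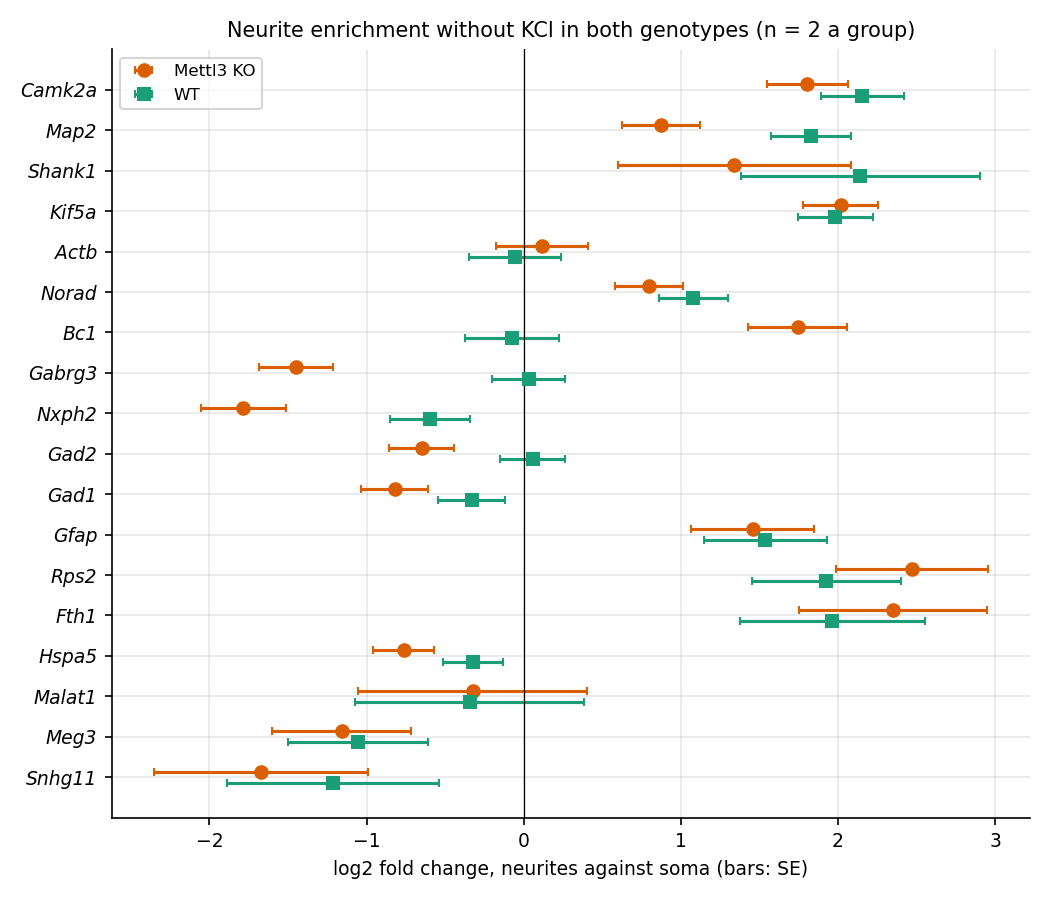
Log2 fold change of neurites against soma for 18 genes in Mettl3 KO (circles) and WT (squares), from 1 edgeR fit of the 8 untreated libraries, with bars of 1 SE. The genotypes lie close for Kif5a (0.03), and Camk2a differs by −0.35. The largest differences are those of Bc1 (1.82), Gabrg3 (−1.48), Nxph2 (−1.19) and Map2 (−0.95).

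Genes were also grouped by the number of deposited m6A sites, which come from WT libraries and not from these 4. Among the 12137 protein-coding genes, the 197 with at least 10 sites had a median log2 change of 0.24 in KO neurites, with 16.2% higher in both pairs. The 6728 genes without a site had a median of −0.07 with 6.42% higher. In WT the medians of the same classes were 0.29 and −0.03. The median difference between genotypes was −0.07 in both classes and −0.13 for the 1071 genes with 5 to 9 sites. Genes with many sites were also longer (7206 against 4794 bases at the median) and had higher counts (7203 against 571), and the part that length and level play was not tested.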

How the data were processed

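The authors aligned paired reads with STAR 2.7.7a to mm10 and counted fragments per gene with featureCounts 2.0.1 on Ensembl 97, without strand and with multi-mapping reads kept. The deposited values are whole-number counts without normalization, beside the exon length. The deposited DART-seq site value is a C2U fraction. The deposited DESeq2 tables and the per-RNA DART-seq table hold the authors' own comparisons and were not used. Symbols and biotypes came from GENCODE M21, Norad's symbol from RefSeq.

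Counts were fitted with edgeR 4.0.16 (TMM, quasi-likelihood) in R 4.3.3, with DESeq2 1.42.0 as an alternative (3499 adjusted p stayed NA), at an adjusted p of at most 0.05 and 1.5-fold, for genes whose mean count reached 10, without mitochondrially encoded genes. Pair ratios used CPM + 0.5, between libraries of the same number, since the methods pair soma and neurites of 1 insert. Tables and plots used Python 3.11.15. On simulated data the fit of the 4 libraries missed most genes changed 4-fold and recovered most of those changed 16-fold. Its 0 calls therefore do not mean that no gene differs. Leaving out libraries, other scalings and filters, a replicate block and larger sets of libraries were tried as alternatives.

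The comparison and the 28 gene lists were chosen with earlier results of these data known. Named genes were Mettl3 and 13 genes the study names for localization, the 10 highest and 10 lowest by the weaker pair ratio (mean count of 100 or more, no Gm or Rik symbols), the 5 smallest p, the 4 highest members of each list, and the 5 largest disagreements between pairs, of which 1 is not reported here. Other genes were named after their values were seen. Counting error and PCR duplicates are not separated, since the reads carry no molecular identifiers.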

Additional observations from a re-analysis of the deposited data

Results flagged for a closer look

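For 5 genes named above, both KO pairs lay on one side of even and both WT pairs on the other. Atp5b, the beta subunit of ATP synthase, had a neurite enrichment that differed by −0.45 between KO and WT on the log2 scale. Gad2 differed by −0.71, Tubb3 by −0.23 and Bdnf by 0.51. Vtn differed by −3.55. The opposite signs themselves were not tested. For the difference between genotypes the edgeR adjusted p was 0.993 for each, and DESeq2 called Vtn but none of the other 4.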

How the results depend on the processing

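For higher and lower genes edgeR called 0 and 0 in the main fit, with RLE scaling, with a mean count of at least 100, with 16, 8 untreated or 8 KO libraries, and with TMM within exon length bins (added after seeing the data). DESeq2 called 86 and 9, and edgeR without a filter on low counts 1057 and 89, where its prior degrees of freedom became infinite (3.99 in the main fit). Leaving out 1 library gave 0 to 2465 higher and 0 to 479 lower, the upper ends without KO soma replicate 1, which leaves the library that stands apart as the only soma reference and assumes that it varies like the neurites. With the replicate number as a block edgeR called 0 and 0 (1756 and 358 at an unadjusted p, against 842 and 545). The study's methods pair soma and neurites of 1 insert, the labels do not say that a shared number marks it, and replicate 2 minus replicate 1 in soma and in neurites had a correlation of 0.04 across genes. For the difference from WT, DESeq2 gave 1 less enriched gene, and leaving out 1 KO library gave 0 to 2089 more and 0 to 491 less enriched, again with the upper ends without soma replicate 1; the replicate block called 0 and 0. The count of genes lower in both pairs was 668, against 1249 with a pseudocount of 0.1, 271 with 2, and 1448 against soma replicate 1 alone.

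Of 1366 log2 changes of 98 named genes under other settings 30 had the opposite sign to the main fit, 19 of them with 1 library left out, and for these the cause was not tested. With 1 library left out, the log2 change ran from −0.25 to 0.61 for Actb, from −0.25 to 0.46 for Arc, from −0.029 to 0.61 for Bdnf, from −2.58 to 2.07 for C1ql1, from −0.13 to 0.45 for Calb2, from −0.31 to 3.31 for Cnih2, from −0.28 to 0.62 for Homer1, from −2.48 to 1.498 for Jund, from −1.11 to 1.53 for Malat1, from −0.055 to 2.66 for Shank1, from −0.39 to 0.37 for Slc1a2, from −1.84 to 2.65 for Smarcd3, from −1.07 to 0.60 for Snap25. With length-bin TMM and no soma replicate 2 (also added after seeing the data) the log2 change was −0.21 for Actb, 2.02 for C1ql1, −0.17 for Calb2, 1.45 for Jund, 2.68 for Smarcd3, 0.62 for Snap25. With a minimum mean count of 100 the log2 change was −0.011 for Arc. In the 8 KO libraries the log2 change was −0.00225 for Arc. With the replicate block the log2 change was 0.10 for Malat1, 0.37 for Smarcd3. With length-bin TMM the log2 change was 0.055 for Slc1a2. Levels of a few CPM, such as those of Vtn, Bc1 and Gng13, rest on few reads.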
